A study of Drosophila melanogaster with 9 samples.

Results

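The comparison described here sets sorted larval cells with ectopic Knot (Kn ME) directly against sorted larval cells with ectopic Abrupt (Ab ME). It uses 6 of the 9 arrays of the series, the 3 labelled Kn ME and the 3 labelled Ab ME, chosen by their titles. The 3 arrays with the marker alone (Control) give, for each difference, the place of the unmanipulated level. Kn ME larvae carried UAS-knL:HA, a tagged Knot transgene, over GAL4[21-7] with UAS-mCD8:GFP. Ab ME larvae carried UAS-abL with GAL4[21-7] and UAS-mCD8:GFP, and Control larvae carried GAL4[21-7] with UAS-mCD8:GFP alone. The driver and the membrane marker mCD8:GFP were thus shared by all 3 groups, and the labels give the driver as active in every class of dendritic arborization (da) neuron. Each sample pooled cells from 80 body walls of larvae at the wandering stage of the third instar reared at 25 °C, collected through the marker after protease digestion.

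Da neurons are the sensory neurons that spread their dendrites under the larval epidermis, and their classes differ in how richly those dendrites branch. Knot (gene kn, also called collier) is a COE-family transcription factor found in class IV neurons, which have the most elaborate arbors and sense noxious stimuli. Abrupt (gene ab) is a BTB zinc finger transcription factor found in class I neurons, which have the simplest arbors. Both factors also have roles outside da neurons, Knot among them in blood cell development. The direct contrast asks which transcripts tell the cells with one factor from the cells with the other.

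Values are log2 RMA values per probe set, and a difference is always the Kn ME mean minus the Ab ME mean, with its standard error (SE) from limma. A probe set or gene passed when its limma p, adjusted by Benjamini-Hochberg over all 18769 probe sets tested, was under 0.05. "Rose" and "higher" refer to Kn ME relative to Ab ME. The median of all values was 1.54, and a level at or below it may be background. The arrays of one group correlated at r = 0.974 to 0.977 in Kn ME, 0.984 to 0.985 in Ab ME and 0.93 to 0.944 in Control, and Kn ME with Ab ME arrays at 0.96 to 0.971, each across probe sets. The median SD over probe sets was 0.209 in Kn ME, 0.175 in Ab ME and 0.317 in Control. The brighter of the kn probe sets read 0.60, 0.53 and 0.68 on the Kn ME arrays, 0.53, 0.66 and 0.66 on the Ab ME arrays and 1.00, 3.75 and 3.53 on the Control arrays. The difference was -0.009 (SE 0.11, limma adjusted p = 0.982). The other kn probe set averaged 0.961 in Kn ME, 0.848 in Ab ME and 0.97 in Control, a difference of 0.11 (SE 0.14, adjusted p = 0.785), so neither passed as higher in Kn ME. Whether either probe set can read the introduced sequence is not given in the sources used here, no probe set carried the name ab, and the labels are used as given.

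Kn ME and Ab ME differed at 241 of 18769 probe sets (1.28%), of which 118 were higher (0.629%) and 123 lower (0.655%) in Kn ME. At 204 of the 241 the difference was at least 2-fold, and their median absolute difference was 1.62 log2 units. The named genes among them numbered 192 of 11982 (1.6%), 92 higher (0.768%) and 100 lower (0.835%). At an unadjusted p under 0.05 there were 2621 probe sets, and the arrays of Kn ME and Ab ME did not overlap at 3657 (19.5%). The number of calls rested on all 6 arrays. It was 43, 33 and 32 without Kn ME replicates 1, 2 and 3, and 59, 10 and 102 without Ab ME replicates 1, 2 and 3. When the Control arrays were added to the fit, so that their wider spread entered the error, 97 probe sets passed, 91 of them among the 241. Another quantile normalization gave 135 higher and 92 lower. In each of these settings all 241 kept their sign. Only 6 genes passed in every alternative tried: Cyp4p2, CG5177 and Gyg, which were higher in Kn ME, and Cyp6a13, CG10859 and CG12116, which were lower. At the other end, 101 of the 192 genes lost the call whichever single array was left out. Only some single genes below are given with the number of alternatives in which they passed, and the others are not thereby more stable. Among those others, Con passed in 5 of 12 and Fbp1 in 4 of 12.

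**Figure D1:**
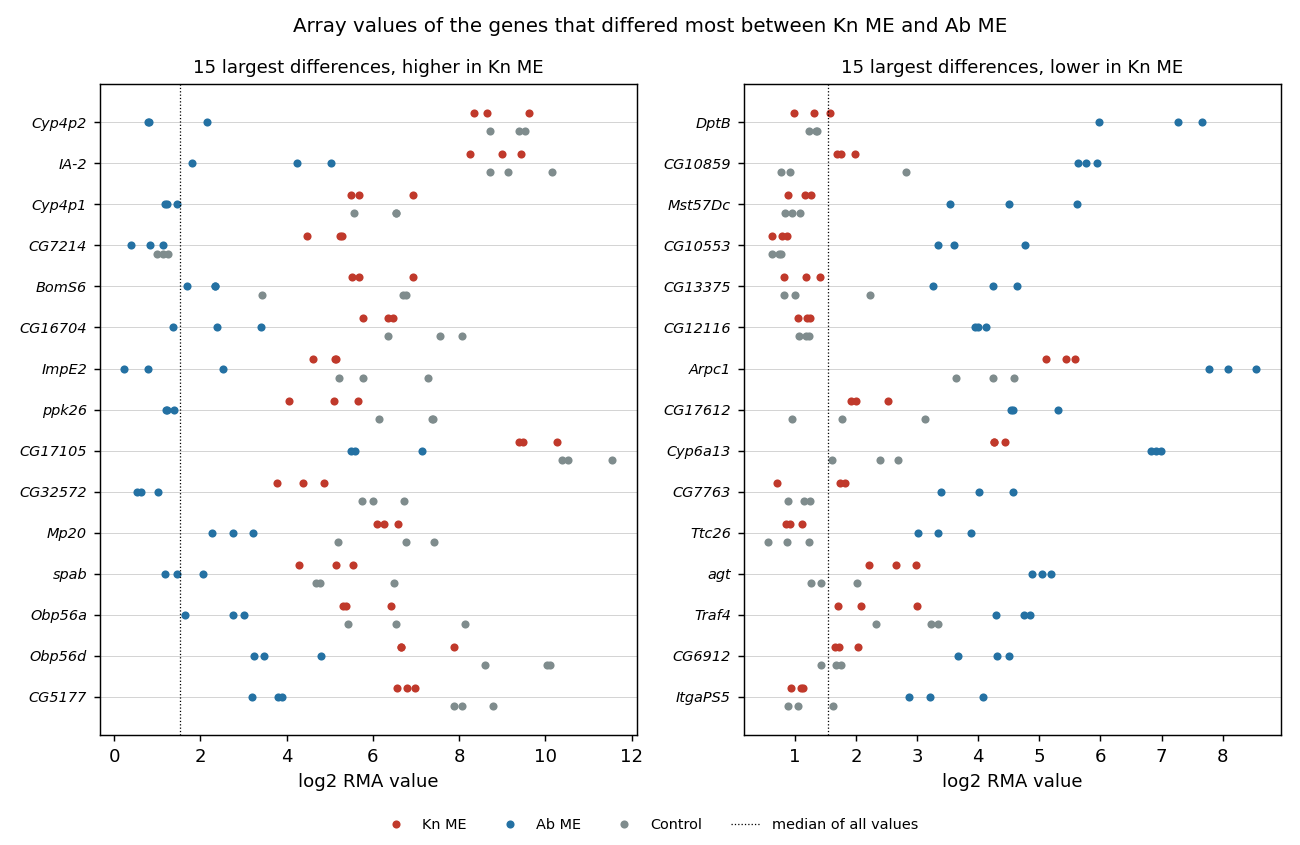
Log2 RMA values on each of the 9 arrays (points; x axis) for the 15 genes with the largest rise (left) and the 15 with the largest fall (right) of Kn ME against Ab ME; red is Kn ME, blue is Ab ME, grey is Control, and the dotted line is the median of all values, 1.54. Kn ME and Ab ME points do not overlap in any of the 30 genes, and Control points lie above all Ab ME points in 14 of the 15 genes on the left and below them in all 15 on the right.

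The Control mean lay on the far side of Kn ME from Ab ME for most of the 241 probe sets. In 87 of the 118 higher ones the Control mean was above both group means, and in 88 of the 123 lower ones it was below both. At these 175 probe sets Kn ME therefore sat between Ab ME and Control. At 56 probe sets the Control mean lay between the other means, nearer to Kn ME in 45 and nearer to Ab ME in 11. At the remaining 10, all higher in Kn ME, Ab ME sat between Kn ME and Control, and no probe set lower in Kn ME had its Control mean above both. Counted by distance, the Ab ME mean was farther from Control at 220 probe sets and the Kn ME mean at 21. The same split over all probe sets can be read from the class shares that follow. The Ab ME mean was farther in the classes holding 30.7%, 24.3%, 5.6% and 4.81%, thus at the majority of probe sets, called or not. The Kn ME mean was farther in those holding 11.5%, 15.1%, 4.72% and 3.28%. Over all 18769 probe sets the class of Control above both with Kn ME higher held 30.7%, and Control below both with Kn ME lower held 24.3%, against 36.1% and 36.5% of the called ones. Control below both with Kn ME higher held 11.5% of all and 4.15% of called, and Control above both with Kn ME lower 15.1% and 0%. Control between and nearer Kn ME held 5.6% of all and 4.56% of called with Kn ME higher, and 4.81% and 14.1% with Kn ME lower. Nearer Ab ME these shares were 4.72% and 4.15% with Kn ME higher, and 3.28% and 0.415% with Kn ME lower. Without any single Control array the number of called probe sets with Kn ME farther from Control ranged from 21 to 26. These positions are a description with no test. In the fit on all 9 arrays, 195 of the 241 also passed in Ab ME against Control (14% of all probe sets) and 83 in Kn ME against Control (5.29%). Both of those comparisons use the same Control arrays. Each also reuses the Ab ME or Kn ME arrays by which the 241 were chosen. Part of the overlap is therefore built in, and it is not independent support.

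**Figure D2:**
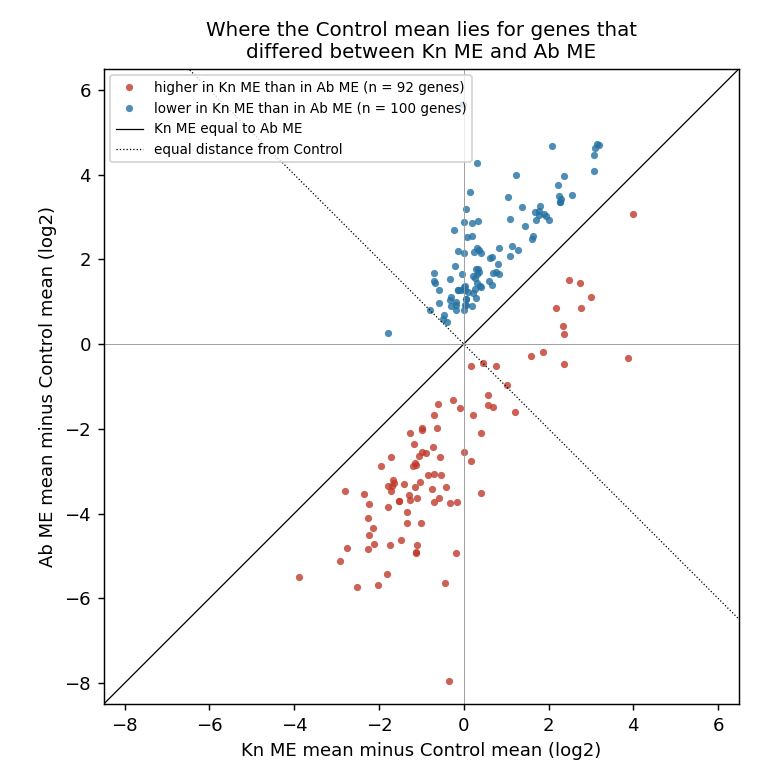
For the 192 named genes that passed between Kn ME and Ab ME, the Kn ME mean minus the Control mean (x axis, log2) against the Ab ME mean minus the Control mean (y axis, log2); each point is a gene, red where Kn ME was higher (92) and blue where it was lower (100). The axes share the Control mean. The solid line marks equal means and the dotted line equal distances on opposite sides of Control, and points between them on the side of the vertical axis have the Ab ME mean farther from Control, as in 176 of the 192 genes. The Ab ME mean was also farther at the majority of all probe sets, called or not.

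The largest rise was that of Cyp4p2, a cytochrome P450 gene. Its values were 8.34, 8.65 and 9.63 in Kn ME, 0.82, 2.15 and 0.80 in Ab ME, and 8.71, 9.53 and 9.40 in Control. Kn ME and Control overlapped, while every Ab ME array was far below them and the Ab ME mean, 1.25 ± 0.77 (SD, n = 3), was below the median of all values. The difference was 7.62 (SE 0.48, limma adjusted p = 0.00641), a ratio of 196 whose size is uncertain because the Ab ME level may be background. Its neighbour in the genome Cyp4p1, another P450 gene, read 5.49, 5.67 and 6.94 in Kn ME, 1.18, 1.24 and 1.45 in Ab ME and 5.57, 6.53 and 6.53 in Control. It rose by 4.75 (SE 0.38, adjusted p = 0.00972) and passed in 11 of 12 alternatives, with p at most 0.0712 after adjustment. Again only the Ab ME arrays stood apart.

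Cyp4p1 and Cyp4p2 belong to a detoxification list with 4 higher and 1 lower of 87 measured genes, against 0.768% and 0.835% of named genes. Its median of 0.02 changes sign with the scaling. The 4 were 2 without any one of the Kn ME arrays, and 3, 1 and 3 without Ab ME replicates 1, 2 and 3, while Cyp6a13 passed in each. Cyp4g1, an enzyme of cuticular hydrocarbon synthesis, rose by 2.94 (SE 0.36, adjusted p = 0.0241), but its Control values of 4.06, 7.90 and 6.30 spanned those of Kn ME, 5.81 to 6.90, and it passed in 5 of 12 alternatives. Cyp6a13 fell. It read 4.26, 4.26 and 4.43 in Kn ME, 6.99, 6.82 and 6.90 in Ab ME and 2.39, 2.68 and 1.6 in Control. The 3 groups did not overlap, and Kn ME lay between the others. The difference of -2.59 (SE 0.12, adjusted p = 0.00142) passed in 12 of 12 alternatives, with p at most 0.0198 after adjustment. GstD9, a glutathione S-transferase, is described below with the genes whose Kn ME mean lay farther from Control.

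Of 43 genes in the neuropeptide list 1 passed, against 0.768% of named genes higher and 0.835% lower (list median 0.08). It was IA-2, a receptor-type phosphatase of dense-core vesicles. Its brightest probe set read 8.24, 9.0 and 9.43 in Kn ME, 1.81, 5.04 and 4.25 in Ab ME and 9.15, 8.71 and 10.16 in Control. The rise of 5.19 (SE 0.82, adjusted p = 0.0453) passed in 7 of 13 alternatives, with p at most 0.132 after adjustment. Of its dimmer probe sets, one differed by 1.09 (adjusted p = 0.115) and the other by 0.071 (0.921). Among 27 nociceptor and mechanosensory channel genes 1 passed, against the same shares of named genes. This was ppk26, a DEG/ENaC subunit of the nociceptive class IV neurons. It read 5.67, 4.05 and 5.09 in Kn ME, 1.39, 1.23 and 1.21 in Ab ME and 6.14, 7.39 and 7.37 in Control. Ab ME was near background, and Kn ME was below every Control array and above every Ab ME array. The rise of 3.66 (SE 0.39, adjusted p = 0.0189) passed in 8 of 12 alternatives, with p at most 0.0907 after adjustment. Its partner subunit ppk was near background in both groups, with 0.98, 0.92 and 1.03 in Kn ME against 0.40, 0.52 and 0.71 in Ab ME, and its difference of 0.43 did not pass (adjusted p = 0.199). The Control arrays read higher for ppk, with 1.99, 1.64 and 4.84.

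ImpE2, an ecdysone-inducible gene, had 5.12, 4.62 and 5.16 in Kn ME, 0.79, 0.23 and 2.52 in Ab ME and 7.27, 5.77 and 5.21 in Control (difference 3.78, SE 0.57, adjusted p = 0.0418, passing in 6 of 12 alternatives). Every Ab ME array was below every other array. ImpL2, a secreted binding protein of insulin-like peptides, rose by 1.59 (SE 0.18, adjusted p = 0.0192) and the groups did not overlap. With ImpE2 it made 2 higher and 0 lower of 34 ecdysone response and pruning genes (0.768% and 0.835% of named genes, median 0.18). That count was 1 with all 9 arrays in the fit, 1 without Kn ME replicate 2 or Ab ME replicate 3, and 0 without any other single array. The odorant-binding protein genes Obp56d and Obp56a rose by 3.23 and 3.23 (adjusted p = 0.0448 and 0.0343), with Control means of 9.58 and 6.70 above both groups. BomS6, a short bomanin of the Toll immune response, had 5.67, 5.52 and 6.92 in Kn ME against 1.70, 2.35 and 2.33 in Ab ME. Its Control arrays of 3.44, 6.70 and 6.77 reached below the Kn ME values, and the rise of 3.91 passed in 6 of 12 alternatives, with p at most 0.113 after adjustment. The genes CG17105 (3.65), CG16704 (3.81), CG32572 (3.61) and spab (3.43) also rose, with Control means above both groups.

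CG5177 and Gyg, the gene of glycogenin, which starts glycogen chains, passed in every alternative; Gyg was singled out for this after its values were seen. CG5177 read 6.97, 6.57 and 6.78 in Kn ME, 3.20, 3.89 and 3.81 in Ab ME and 7.89, 8.79 and 8.07 in Control. Gyg read 6.36, 6.23 and 6.38 in Kn ME, 4.56, 4.76 and 4.59 in Ab ME and 6.54, 7.61 and 7.48 in Control. In each the 3 groups did not overlap and Kn ME lay in the middle. The rises were 3.14 (SE 0.22) and 1.68 (SE 0.12), both with adjusted p = 0.00759 and at most 0.0482 in an alternative.

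Muscle genes formed the largest group of rises. Of 25 measured, 8 passed as higher in Kn ME and 0 as lower, against 0.768% and 0.835% of all named genes. The arrays did not overlap at 14 of the 25, all higher in Kn ME, against 9.58% of named genes higher in this way. The median difference was 1.23, against -0.0037 over all named genes. The genes were up (troponin T), Mf (myofilin of the thick filament), Mlc1 (a myosin light chain), Tm2 (tropomyosin), Mlp84B (a muscle LIM protein), Act87E (an actin), Prm (paramyosin) and Zasp66 (a Z-disc protein). The gene up read 7.29, 7.52 and 7.13 in Kn ME, 4.47, 4.57 and 4.90 in Ab ME and 7.35, 8.86 and 7.97 in Control. Kn ME overlapped Control, and Ab ME stood below both. Its rise of 2.66 (SE 0.17, adjusted p = 0.00641) passed in 11 of 12 alternatives, with p at most 0.052 after adjustment. Mf read 7.58, 7.57 and 7.55 in Kn ME, 4.24, 4.24 and 5.19 in Ab ME and 7.57, 8.91 and 8.37 in Control, a rise of 3.01 (SE 0.27, adjusted p = 0.0128). A dimmer Mf probe set rose by 2.17 and did not pass (adjusted p = 0.214). Mp20, a calponin-like muscle protein gene outside the list, read 6.58, 6.09 and 6.26 in Kn ME, 2.28, 2.75 and 3.21 in Ab ME and 5.20, 7.43 and 6.76 in Control, a rise of 3.56 (SE 0.26, adjusted p = 0.00759). The other 6 called list members rose by 2.09 to 3.03. Dimmer Zasp66 probe sets rose by 2.56 and 2.66 and did not pass (adjusted p = 0.109 and 0.122). A dimmer Prm probe set rose by 2.84 and passed (adjusted p = 0.0433).

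The mean log2 level over the 25 muscle genes was 5.01 to 5.38 on the Kn ME arrays, 3.50 to 4.10 on the Ab ME arrays and 5.16 to 5.85 on the Control arrays. Kn ME and Control ranges overlapped, and Ab ME lay below. Of the 25 genes, 2 were under the median of all values in every group. In such bulk samples fewer cells of a type and less RNA per cell cannot be told apart, here or for any group below, and the part of carried-over muscle cells in the result was not tested. The count of 8 was 2, 1 and 1 without Kn ME replicates 1, 2 and 3 and 5, 0 and 7 without Ab ME replicates 1, 2 and 3. With all 9 arrays in the fit it was 6, and the list median stayed between 0.91 and 2.09 over the alternatives.

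**Figure D3:**
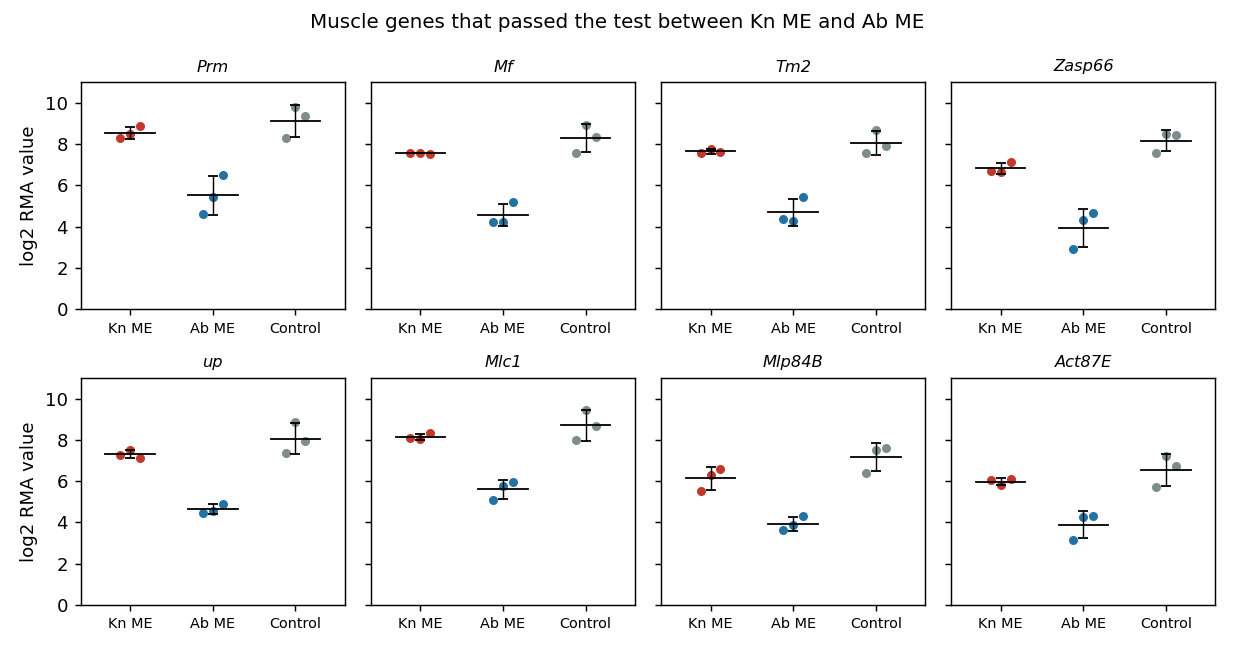
Log2 RMA values (y axis) of the 8 muscle genes that passed, by group (x axis), with 3 arrays per group as points, the mean as a line and the SD as an error bar. Every Ab ME point lies below every Kn ME point in all 8 genes, and the Control mean lies above the Kn ME mean in each.

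Of 55 epidermis and cuticle genes 4 passed as higher in Kn ME and 0 as lower (0.768% and 0.835% of all named genes), with a median of 0.15 and 15 negative members. The arrays did not overlap at 16, higher in Kn ME (9.58% of named genes), and at 1, lower (11.8%). The count of 4 was 1 with all 9 arrays in the fit, 0 without any one of the Kn ME arrays and 1 without any one of the Ab ME arrays. The cuticle protein genes Pcp, Cpr65Aw and Cpr51A rose by 2.20 (SE 0.29), 2.20 (SE 0.35) and 1.89 (SE 0.21), and Obp56d was the fourth. Cpr51A read 6.33, 6.43 and 6.33 in Kn ME, 4.16, 4.93 and 4.34 in Ab ME and 7.16, 8.46 and 7.73 in Control. All 4 had their Control mean above both groups. The mean level over the list was 2.82 to 2.90 in Kn ME, 2.14 to 2.45 in Ab ME and 3.63 to 3.88 in Control, without overlap, and its part in the single genes was not tested. In the tracheal list dpy, a giant protein of the apical matrix, rose by 1.75 (SE 0.19, adjusted p = 0.0192), and sty, the inhibitor of receptor tyrosine kinase signalling sprouty, fell by 0.84 (SE 0.11, adjusted p = 0.0317), 1 each of 17 genes (median 0.44). In the glial list 1 of 27 rose (median 0.08), Inx2, a gap junction innexin, with 7.89, 7.51 and 8.10 in Kn ME, 6.02, 6.63 and 5.89 in Ab ME and 9.32, 9.68 and 9.59 in Control (difference 1.65, adjusted p = 0.0407). In the fat body list 1 of 19 rose (median 0.14), Fbp1, a storage protein receptor, by 1.19 (adjusted p = 0.0243). These 3 lists stand against the same 0.768% higher and 0.835% lower of named genes. Without any single array the glial and fat body counts were 0, and with all 9 arrays in the fit they were 1 and 0. The tracheal rise count was 1 without Kn ME replicate 2 and 0 without any other single array. The tracheal fall count was 0 without any single array.

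Among 60 adhesion and guidance genes 3 rose and 0 fell, against 0.768% and 0.835% of named genes (median 0.25). The count of 3 was 1 with all 9 arrays in the fit, 1 without Kn ME replicate 2 or Ab ME replicate 3, and 0 without any other single array. They were ImpL2, which stands in that list as an immunoglobulin domain protein, Con, the leucine-rich repeat adhesion molecule Connectin, and Sema2b, a secreted semaphorin. Con read 3.04, 2.38 and 2.40 in Kn ME, 1.13, 0.84 and 0.71 in Ab ME and 2.89, 2.47 and 4.61 in Control, a rise of 1.71 (SE 0.22, adjusted p = 0.0265). Kn ME overlapped Control, and Ab ME was below the median of all values. Sema2b was low throughout, with means of 1.81 in Kn ME and 0.83 in Ab ME, and passed in 2 of 12 alternatives. The teneurin Ten-m, a large adhesion molecule, read 8.49, 8.63 and 8.69 in Kn ME, 9.14, 9.24 and 9.21 in Ab ME and 7.60, 7.09 and 7.12 in Control. The 3 groups did not overlap, but the difference of -0.59 (SE 0.11) missed the threshold (adjusted p = 0.0735) and passed in 0 of 12 alternatives, with p at most 0.243 after adjustment.

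The largest fall was that of DptB, a diptericin-type antimicrobial peptide gene. It read 1.58, 1.32 and 0.99 in Kn ME, 5.98, 7.26 and 7.66 in Ab ME and 1.35, 1.36 and 1.23 in Control. Kn ME and Control were both near background, and only the Ab ME arrays carried signal. The difference of -5.67 (SE 0.43, adjusted p = 0.00866) passed in 11 of 12 alternatives, with p at most 0.0692 after adjustment. The immune list held 0 rises and 2 falls of 32, against 0.768% and 0.835% of named genes (median -0.16). The bomanin genes BomS6 and BomS4, which rose, are not in that list. The count of falls was 1 with all 9 arrays, 1 without Kn ME replicate 2 or 3 or Ab ME replicate 1 or 3, and 0 without Ab ME replicate 2. The other was spz, the ligand of the Toll receptor, with 8.61, 8.45 and 8.36 in Kn ME, 9.5, 9.72 and 9.45 in Ab ME and 6.57, 6.07 and 5.98 in Control (difference -1.08, SE 0.13, adjusted p = 0.024). Mtk, the antimicrobial peptide gene metchnikowin, had 6.12, 2.39 and 2.23 in Kn ME, 7.85, 9.0 and 9.68 in Ab ME and 2.31, 2.40 and 4.33 in Control. One Kn ME array stood high, and the difference of -5.27 (SE 1.09) did not pass (adjusted p = 0.0898). It passed in 3 of 12 alternatives, with p at most 0.274 after adjustment.

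In 8 of the 15 largest falls the Kn ME mean was under the median of all values, and in 12 the Control arrays overlapped the Kn ME arrays. CG10859 read 1.69, 1.98 and 1.75 in Kn ME, 5.64, 5.94 and 5.76 in Ab ME and 0.91, 2.81 and 0.77 in Control (difference -3.97, SE 0.14, adjusted p = 0.000901). CG12116 read 1.05, 1.21 and 1.25 in Kn ME, 3.95, 4.13 and 4.0 in Ab ME and 1.06, 1.23 and 1.18 in Control (difference -2.86, SE 0.12, adjusted p = 0.00126). Kn ME and Control overlapped in both genes, and each passed in 12 of 12 alternatives. Ttc26, an intraflagellar transport subunit, fell by 2.45 (SE 0.23, adjusted p = 0.0142), and Tektin-C, a protein of axonemal microtubules, fell by 2.16 (SE 0.20, adjusted p = 0.0135) and was added after its values were seen. Mst57Dc, a male-specific transcript, fell by 3.45 (SE 0.49, adjusted p = 0.0361). The means of these 3 in Kn ME were 0.96, 1.06 and 1.11, and in Control 0.89, 1.06 and 0.96. Other large falls were those of CG10553 (-3.14), CG13375 (-2.92), CG17612 (-2.66), CG7763 (-2.57), CG6912 (-2.36) and agt, a DNA alkyltransferase gene (-2.43).

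Of 33 actin regulators 1 passed, against 0.835% of named genes lower and 0.768% higher (list median -0.011). It was Arpc1, a subunit of the Arp2/3 complex that nucleates branched actin. It read 5.58, 5.11 and 5.44 in Kn ME, 8.55, 8.09 and 7.78 in Ab ME and 3.63, 4.25 and 4.58 in Control. The groups did not overlap, with Kn ME nearer to Control. The difference of -2.76 (SE 0.23, adjusted p = 0.0108) passed in 10 of 12 alternatives, with p at most 0.0712 after adjustment. In the cell death and injury list 2 of 28 fell and 0 rose, against 0.835% and 0.768% of named genes (median -0.07). The count of falls was 1 with all 9 arrays in the fit, 1 without Kn ME replicate 2 or 3, and 0 without any other single array. Traf4, a TNF receptor adaptor, had 2.08, 1.71 and 2.99 in Kn ME, 4.75, 4.29 and 4.85 in Ab ME and 3.34, 2.32 and 3.23 in Control, a difference of -2.37 (SE 0.34, adjusted p = 0.0391), while a second Traf4 probe set, near background, differed by 0.076. The other was egr, the TNF ligand Eiger, described with the genes below.

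Most blood cell genes had small negative differences. Of 36 plasmatocyte genes 2 fell and 1 rose, against 0.835% and 0.768% of named genes, and 29 had a negative difference (median -0.33). The arrays did not overlap at 19, lower in Kn ME, against 11.8% of all named genes, and at 3, higher. Ppn, the matrix proteoglycan papilin, fell by 0.97 (SE 0.13, adjusted p = 0.0315) with 10.24, 10.07 and 10.13 in Kn ME, 10.93, 11.15 and 11.26 in Ab ME and 8.15, 7.55 and 7.10 in Control. NimB1, a secreted nimrod, fell by 1.13 (SE 0.17, adjusted p = 0.0402), with a Control mean of 5.43 below both groups. Each passed in 3 of 12 alternatives, and neither passed without any one of the 6 arrays or with all 9 in the fit. The member that rose, emp, is a class B scavenger receptor used in other tissues too (difference 1.57, SE 0.17, adjusted p = 0.0192). Its Control mean of 5.67 was above both groups. The mean level over the list was 7.07 to 7.14 in Kn ME, 7.34 to 7.45 in Ab ME and 5.41 to 6.34 in Control. Of 20 crystal cell and lamellocyte genes 2 fell and 0 rose, against 0.835% and 0.768% of named genes (median -0.31). The count of falls was 1 without Kn ME replicate 1 or Ab ME replicate 1, and 0 without Kn ME replicate 2 or 3 or Ab ME replicate 2. E(spl)mbeta-HLH, a Notch target, read 5.61, 5.61 and 5.59 in Kn ME, 6.79, 7.02 and 6.80 in Ab ME and 4.11, 3.77 and 3.62 in Control (difference -1.26, SE 0.12, adjusted p = 0.0135). The integrin subunit gene ItgaPS5 fell by 2.33 (SE 0.30, adjusted p = 0.0276), with its Kn ME and Control values all at or near background. The crystal cell genes lz, PPO1 and PPO2 differed by -0.82, -0.62 and -1.20 and did not pass (adjusted p = 0.269, 0.274 and 0.102). The gene lz, a Runx transcription factor of crystal cells, averaged 5.57 in Kn ME, 6.4 in Ab ME and 1.80 in Control, and in the fit on all 9 arrays it was higher than Control in Kn ME (adjusted p = 0.0013) and in Ab ME (adjusted p = 0.000157). PPO1 averaged 8.36 in Kn ME, 8.98 in Ab ME and 4.03 in Control, and PPO2 7.65 in Kn ME, 8.85 in Ab ME and 3.56 in Control. The Control arrays were uneven, with 7.34, 1.53 and 3.22 for PPO1 and 7.14, 1.81 and 1.72 for PPO2. Against Control both passed in Ab ME (adjusted p = 0.0295 and 0.0273) and not in Kn ME (0.082 and 0.108), and Kn ME and Ab ME themselves did not pass against each other. Whether carried-over blood cells have a part in these values was not tested.

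Growth-related lists had negative medians without single calls. Of 31 proliferation genes 26 had a negative difference (median -0.63), and the arrays did not overlap at 15, lower in Kn ME, against 11.8% of named genes. At an unadjusted p under 0.05, which 2621 of all 18769 probe sets met in either direction, 15 were lower and 0 higher. The 2621 were not split by direction, here or for the lists that follow. None passed limma after adjustment. PCNA, the replication clamp, came closest, with a difference of -0.97 (SE 0.16, adjusted p = 0.0534). The mean level over the list was 3.66 to 4.01 in Kn ME, 4.32 to 4.58 in Ab ME and 3.14 to 3.46 in Control, without overlap. Among 69 mitochondrial ribosomal protein genes 60 were negative (median -0.33), 17 did not overlap and were lower, and 14 were lower and 0 higher at an unadjusted p under 0.05, with 0 past limma. Respiratory chain genes were negative in 40 of 56 (median -0.18, with 8 lower and 0 higher at an unadjusted p under 0.05), and cytosolic ribosomal protein genes in 28 of 29 (median -0.23, with 5 lower and 0 higher). In both lists 0 passed limma. These medians kept their sign under another quantile normalization (-0.51, -0.27, -0.08 and -0.12 in the same order) and under centring of the arrays. With dim probe sets left out they were -0.61, -0.33, -0.18 and -0.23, but the median of all named genes was then -0.15. The respiratory chain median thus lay close to that of named genes above the dim range.

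**Figure D4:**
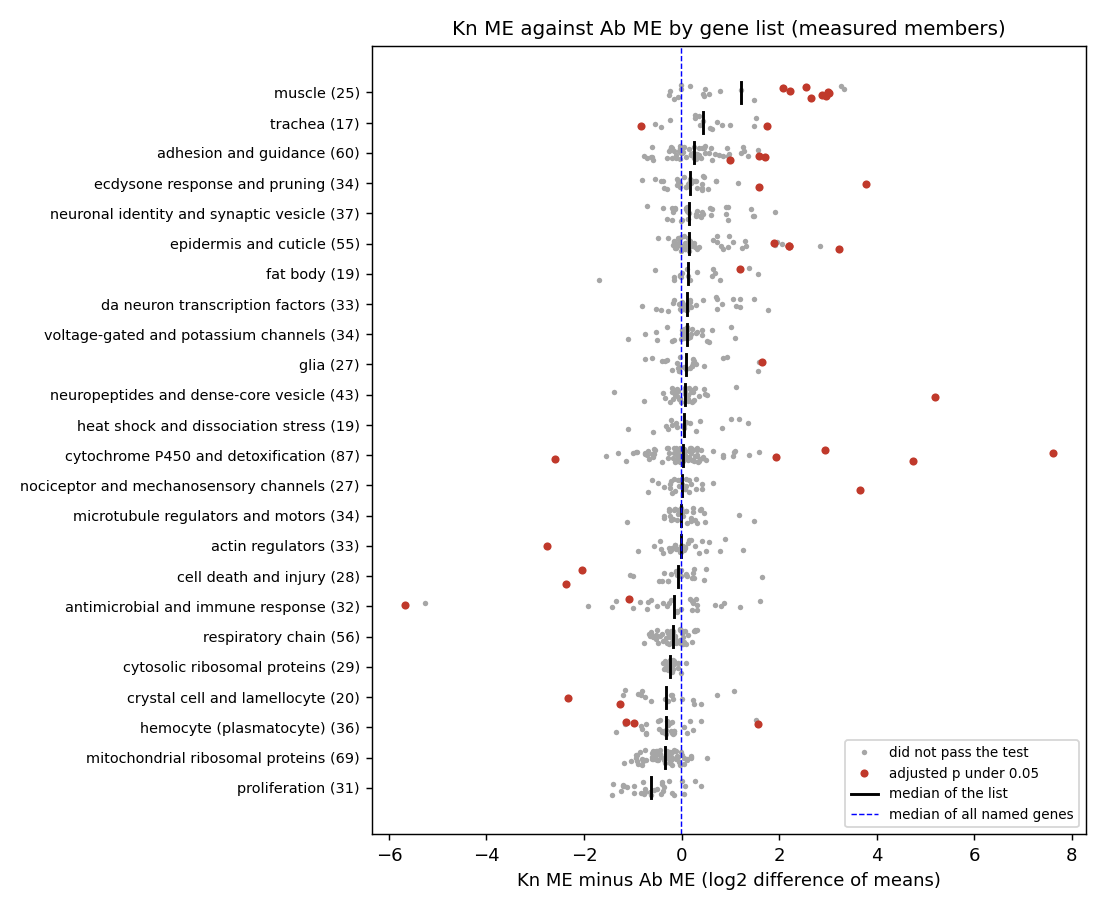
Kn ME minus Ab ME in log2 units (x axis) for each measured gene of 24 lists (rows, with the number measured in brackets); grey points did not pass the test, red points did, black bars are list medians and the dashed line is the median of all named genes, -0.0037. Muscle has the highest list median, 1.23, and proliferation the lowest, -0.63.

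A set of 16 of the 192 genes had their Kn ME mean farther from Control than their Ab ME mean, 15 of them higher in Kn ME. Over all probe sets the classes with Kn ME farther held 11.5% and 4.72% with Kn ME higher. With Kn ME lower they held 15.1% and 3.28%. Of the 16 genes, 11 passed in Kn ME against Control and 2 in Ab ME against Control, in the fit on all 9 arrays. They were picked out after their values were seen. CG7214 differed most, with 4.47, 5.29 and 5.25 in Kn ME, 0.39, 0.84 and 1.14 in Ab ME and 0.99, 1.26 and 1.13 in Control. Signal above background was seen on the Kn ME arrays alone. The rise of 4.21 (SE 0.29, adjusted p = 0.00759) passed in 11 of 12 alternatives, with p at most 0.0569 after adjustment. CG18586 had the same form at a lower level, with 3.38, 3.05 and 2.73 in Kn ME, 0.99, 0.81 and 0.99 in Ab ME and 0.84, 0.53 and 0.71 in Control (difference 2.12, SE 0.19, adjusted p = 0.0126). GstD9 read 6.78, 6.89 and 7.06 in Kn ME, 5.19, 4.59 and 5.16 in Ab ME and 4.88, 3.91 and 3.64 in Control (difference 1.93, SE 0.19, adjusted p = 0.0178). Ab ME overlapped Control in GstD9 and Kn ME was above both.

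CG33458 and CG33459, neighbours in the gene order, rose by 2.84 (SE 0.25, adjusted p = 0.0126) and 1.89 (SE 0.22, adjusted p = 0.0207). CG33458 read 6.90, 7.08 and 7.15 in Kn ME, 4.51, 3.65 and 4.45 in Ab ME and 5.88, 3.28 and 4.87 in Control. CG33459 read 7.03, 6.84 and 6.62 in Kn ME, 4.5, 5.18 and 5.15 in Ab ME and 4.09, 4.56 and 2.84 in Control. BomS4, a short bomanin like BomS6, had 2.54, 2.72 and 3.45 in Kn ME, 0.99, 1.34 and 0.76 in Ab ME and 1.00, 1.27 and 1.70 in Control, a rise of 1.87 (SE 0.28, adjusted p = 0.0402). The bestrophin gene Best1, which encodes a chloride channel, was high with either factor, with 6.94, 6.85 and 7.09 in Kn ME, 5.98, 6.02 and 6.16 in Ab ME and 3.87, 3.00 and 2.05 in Control. The step between the factors, 0.91 (SE 0.12, adjusted p = 0.0294), passed in 4 of 12 alternatives. The neprilysin-like peptidase gene Nepl14 rose by 1.33, while Nepl19, Nepl20 and Nepl21 fell by 1.59, 1.37 and 1.08. In those 3 falling genes Control was below both groups. The single gene of the 16 that was lower in Kn ME was egr, with 2.20, 2.74 and 1.98 in Kn ME, 4.23, 4.44 and 4.37 in Ab ME and 5.69, 2.97 and 3.59 in Control. Every Kn ME array was below every other array. The difference of -2.04 (SE 0.21, adjusted p = 0.0179) passed in 7 of 13 alternatives, with p at most 0.285 after adjustment, and its second probe set differed by -1.84 (adjusted p = 0.0678).

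**Figure D5:**
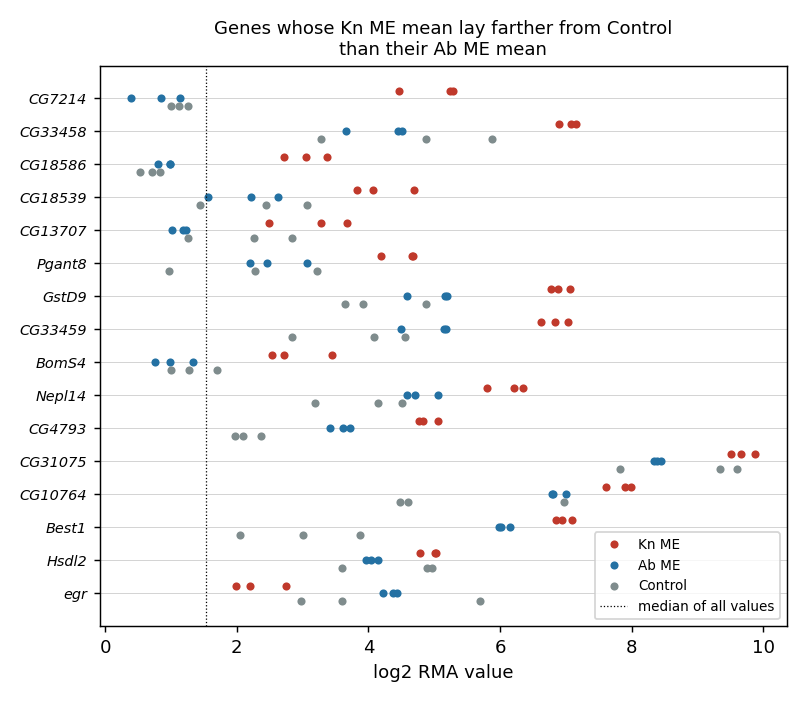
Log2 RMA values on each array (x axis) for the 16 genes whose Kn ME mean lay farther from the Control mean than their Ab ME mean did; red is Kn ME, blue is Ab ME, grey is Control and the dotted line is the median of all values, 1.54. Red points lie to the right of blue points in 15 genes and to the left in egr.

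Genes of neuronal identity and of da neuron fate did not pass between the factors. Of 33 transcription factors of da neurons 0 passed limma (4 higher and 2 lower at an unadjusted p under 0.05, median 0.11). Over all 18769 probe sets, 2621 were under that unadjusted p in either direction. The homeodomain gene ct had 5.50, 5.59 and 5.07 in Kn ME, 5.98, 5.91 and 5.81 in Ab ME and 4.39, 4.46 and 4.0 in Control, a difference of -0.52 (SE 0.17, adjusted p = 0.238). Its other probe sets differed by -0.72 (adjusted p = 0.424) and, near background in both groups, by 0.43 (adjusted p = 0.188). Of 37 neuronal identity and synaptic vesicle genes 0 passed, although 27 had a positive difference and 9 were higher and 0 lower at an unadjusted p under 0.05 (median 0.16). The neuronal RNA-binding gene elav read 5.55, 5.69 and 5.01 in Kn ME, 4.82, 4.94 and 4.70 in Ab ME and 6.46, 6.06 and 6.29 in Control. The vesicle gene nSyb read 5.08, 4.74 and 4.35 in Kn ME, 3.69, 3.73 and 4.04 in Ab ME and 6.78, 6.73 and 6.97 in Control. In both the 3 groups did not overlap and Kn ME was in the middle, with differences of 0.60 (adjusted p = 0.251) and 0.90 (adjusted p = 0.124). Ddc, dopa decarboxylase, which the epidermis also uses, differed by 1.92 (adjusted p = 0.0714). The pan-neuronal markers elav and nSyb were thus above the median of all values on all 9 arrays, and highest in Control. The mean level over the 37 genes was 3.16 to 3.41 in Kn ME, 2.76 to 3.04 in Ab ME and 3.98 to 4.43 in Control.

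The remaining lists held 0 calls by limma. They were voltage-gated and potassium channels (34 genes, median 0.11, with 3 higher and 2 lower at an unadjusted p under 0.05), microtubule regulators and motors (34 genes, median -0.001, 3 and 1) and heat shock and dissociation stress (19 genes, median 0.05, 4 and 2). These counts stand beside 2621 of all 18769 probe sets under the same unadjusted p in either direction. The microtubule-severing gene spas, known as a target of Knot in class IV neurons, read 5.57, 5.67 and 5.50 in Kn ME, 5.51, 5.62 and 5.61 in Ab ME and 5.65, 3.47 and 5.31 in Control. The groups overlapped fully (difference -0.0013, SE 0.11). Drsl5, a drosomycin-like peptide gene that was low with either factor, had means of 1.82 in Kn ME and 1.13 in Ab ME against 6.32 in Control. Its difference of 0.69 did not pass (adjusted p = 0.0812).

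In the gene order of the annotation, 9 pairs of neighbouring measured genes both passed, made up of 17 genes, and in all 9 the neighbours had the same direction. The share of same-direction neighbours over all measured genes was not counted, and no cause of a shared direction was tested. Pairs with genes outside the sets above were named after their values were seen. Besides Cyp4p1 with Cyp4p2, CG33458 with CG33459 and the chain of Nepl19, Nepl20 and Nepl21, the pairs were CG17105 with CG17107, Cpr65Av with Cpr65Aw, Traf4 with CG17612, Jabba with Mctp, and CG31051 with Ppn. Of the 192 genes 25 had more than 1 probe set. In 21 of the 25 all probe sets had the same sign, in 2 all passed, and in 0 did another probe set pass the other way.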

How the data were processed

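The authors' deposited table holds log2 values per probe set of a single-colour Affymetrix Drosophila array for 9 samples, for which the submitters' processing notes name RMA. No source used here gives its version, its log base or which arrays were normalized together. Base 2 was taken from the range of the values. Of 18952 probe sets 183 array controls were left out. Probe sets with 1 symbol in the platform annotation (13647 of 18769, with 402 holding several and 4720 none) were named, 13544 through the gene identifier in a RefSeq gene table (Release 6 plus ISO1 MT), used for names and gene order. The probe set with the highest mean stood for its gene.

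Kn ME and Ab ME were compared with limma 3.58.1 (R 4.3.3) on their 6 arrays, with 4 residual and 2.48 prior degrees of freedom, 2-sided, adjusted by Benjamini-Hochberg. Only these arrays entered because Control arrays vary more, a spread known from earlier results. Differences from Control used all 9 arrays. The fit was tested on simulated data.

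Named genes were the 15 largest rises and 15 largest falls among called genes without overlap, the 5 largest per class of Control position, called list members and up to 4 members per list with the smallest p, and a fixed set. Members and 24 lists were chosen with earlier results of these data known. Alternatives were another quantile normalization, median centring, a filter on dim probe sets, a trend and robust prior, all 9 arrays, a replicate block, the mean of a gene's probe sets and leaving out each array. A promoter motif was not analysed here. Scanner output and hybridization dates were not used, so batch was not examined. Precision is limited by the 3 arrays per group. The labels call the samples biological replicates.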

Additional observations from a re-analysis of the deposited data

How the results depend on the processing

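The 241 calls between Kn ME and Ab ME (118 higher, 123 lower) became 97 (50 and 47) with all 9 arrays in the fit, and 184 were higher after dim probe sets were left out, which tests fewer probe sets. Leaving out 1 array gave 10 to 102 calls, 6 to 65 higher and 4 to 37 lower, with fewer samples by construction. Whether the replicate numbers shared by the groups mark a pairing cannot be told from 3 arrays per group. Deviations of same-numbered arrays correlated at r = 0.121, 0.0368 and 0.272, and those of differently numbered arrays at -0.198 to 0.0872. Kn ME replicate 2 correlated better with Ab ME replicate 1 (0.0872) than with its own number. With the replicate block 180 passed, 68 of them lower, and 125 were among the 241. Another quantile normalization gave 227 calls, centring 268 and the other prior 290. The differences from Control numbered 992 in Kn ME and 2622 in Ab ME, 347 to 1609 and 1400 to 3249 when an array was left out, and 1078 and 2778 with the replicate block. The classes of Control position stayed within 1.5 times their count in all 5 alternatives. No called gene changed sign in any alternative. The differences of kn and spas, both close to 0, had no stable sign. When 1 array was left out kn ranged from -0.0528 to 0.0283, with 0.0122 and 0.0137 without Ab ME replicates 2 and 3, and spas ranged from -0.0478 to 0.0402, with 0.00367 without Kn ME replicate 1 and 0.019 and 0.013 without Ab ME replicates 2 and 3. The mean of its probe sets gave 0.0522 for kn, and quantile normalization gave 0.109 for spas. The cause of these changes was not tested. Genes whose lower group mean was under the median of all values, 39 of the 241 probe sets, have uncertain sizes. The muscle count and the count of genes with Kn ME farther from Control were added after seeing the data.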
